A study of Mus musculus with 4 samples.

Results

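The killer lectin-like receptors examined here are 10 genes, *Klrg1*, *Klrd1*, *Klrc1*, *Klrc2*, *Klrk1*, *Klre1*, *Klra7*, *Klra8*, *Klrb1c* and *Klrb1b*, chosen by name as members of the receptor family. They were looked up among the 3488 genes listed in either of a pair of marker tables made by single-cell RNA sequencing. A listing is 1 gene whose average the authors marked as higher inside 1 cluster than among the remaining cells. Of the 10 receptors, 9 were listed for at least 1 of 21 cell types, with 31 listings in all, and *Klrg1* alone was listed among 10 subclusters of group 2 innate lymphoid cells (ILC2s), for 4 of them. *Klra8* was listed in neither table, and whether it was tested is not given.

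The cells came from wild type BALB/c mice, 8 weeks of age by the study's methods. Intraperitoneal injections on each of 5 days held either PBS or recombinant IL-33 (rIL-33) at 0.5 µg, a cytokine that activates ILC2s. Each treatment gave a liver group and a lung group, and each of these 4 groups was 1 library from tissue pooled over several mice. The cells had been sorted as positive for CD127, Thy1 and ST2 and negative for lineage markers, CD3e and TCRb among them, yet the tables name T cell, NK and other types besides ILC2s. Both tables pool the 4 libraries, so nothing below compares treatments or organs, and no value has a replicate or a test.

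Killer lectin-like receptors are membrane proteins with a C-type lectin-like domain, best known from natural killer (NK) cells, where activating and inhibitory members are read together to decide whether a target cell is attacked. CD94, the product of *Klrd1*, pairs with NKG2A (*Klrc1*), which is inhibitory, or with NKG2C (*Klrc2*), which is activating, and both pairs bind the nonclassical MHC molecule Qa-1. NKG2D (*Klrk1*) is an activating receptor for stress-induced ligands, and the Ly49 receptors (*Klra* genes) mostly bind classical MHC class I. *Klrb1c* encodes the NK1.1 antigen of some mouse strains, and this antigen was not measured here. KLRG1 is an inhibitory receptor for cadherins that is widely used as a surface marker of activated or mature ILC2s.

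All 10 genes are protein-coding and lie on mouse chromosome 6 (GRCm38, GENCODE annotation). *Klrg1* spans chr6:122270596-122282882. The other 9 lie within 1455 kb of each other, starting 6496 kb away, in the order *Klrb1c* (chr6:128778485-128789215), *Klrb1b* (chr6:128813706-128826331), *Klre1* (chr6:129577905-129585827), *Klrd1* (chr6:129591782-129598775), *Klrk1* (chr6:129610323-129623864), *Klrc2* (chr6:129647496-129660689), *Klrc1* (chr6:129666015-129678973), *Klra8* (chr6:130115226-130129898) and *Klra7* (chr6:130218605-130233322). *Klre1* and *Klrd1* are on the plus strand, and the other 8 on the minus strand.

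*Klrc1* and *Klrc2* were listed for the same 4 cell types, *Klrk1* for the most types, and *Klrb1c* is the gene of the NK1.1 marker of some strains. The 250 bases before a RefSeq start of these genes are therefore shown. The gene spans above run over all GENCODE transcripts, and the start used for *Klrb1c* lies inside its span, as does that of *Klrc2*, where the window runs across the outer end of the span. The sequences are from RefSeq (GRCm38.p6), 5′ to 3′ along the gene, and capitals mark the letters TGTGGT, the core bound by Runx factors, on either strand.
Klrc1, chr6:129678974-129679223, minus strand: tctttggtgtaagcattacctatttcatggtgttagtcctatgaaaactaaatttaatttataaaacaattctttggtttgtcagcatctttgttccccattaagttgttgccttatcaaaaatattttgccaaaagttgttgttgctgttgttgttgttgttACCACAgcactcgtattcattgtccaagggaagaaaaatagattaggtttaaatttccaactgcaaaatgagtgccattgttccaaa
Klrc2, chr6:129660597-129660846, minus strand: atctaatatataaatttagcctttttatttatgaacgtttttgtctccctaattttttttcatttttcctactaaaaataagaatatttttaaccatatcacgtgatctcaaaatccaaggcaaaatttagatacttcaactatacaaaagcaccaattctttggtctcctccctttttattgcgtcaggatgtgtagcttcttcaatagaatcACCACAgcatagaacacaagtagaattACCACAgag
Klrk1, chr6:129623865-129624114, minus strand: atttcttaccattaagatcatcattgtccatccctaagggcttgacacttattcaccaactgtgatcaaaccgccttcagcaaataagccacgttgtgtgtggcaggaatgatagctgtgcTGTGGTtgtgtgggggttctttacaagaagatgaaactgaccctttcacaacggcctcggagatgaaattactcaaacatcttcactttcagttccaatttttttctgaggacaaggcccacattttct
Klrb1c, chr6:128788642-128788891, minus strand: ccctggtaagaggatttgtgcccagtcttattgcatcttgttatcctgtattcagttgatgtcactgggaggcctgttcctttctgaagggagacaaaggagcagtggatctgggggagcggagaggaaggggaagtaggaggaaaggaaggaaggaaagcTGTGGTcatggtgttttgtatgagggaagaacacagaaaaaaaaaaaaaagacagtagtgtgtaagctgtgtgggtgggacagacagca

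The motif TGTGGT was in 5 of the 8 receptors with such a window, against 14.0% of 32851 windows of the same length. The receptors with a match were the 4 shown and *Klre1*, for which the match lay before the first of its 2 annotated starts and was absent before the second, the first being a start that GENCODE does not hold. The T-box letters GTGTGA were in 0 of the 8 windows at the first start (12.3% of all windows), but 1 match lay before the second start of *Klre1*, the one that GENCODE holds. The GATA letters AGATAA were in 1 of the 8, that of *Klra7* (9.99% of all windows), and absent before the second start of that gene. Both strands were searched for each motif, the motifs were picked after the listings were seen, and a match in letters is a description of the window, not a binding site. *Klrg1* and *Klrd1* had no entry in the promoter table.

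A pair of properties of the data set how the shares below can be read. First, the shares of the cell type table are cells with a value above 0 for a gene, and these are high for most genes. *Cd3e*, part of the T cell receptor complex, was above 0 in 83.5% of all cells of the cell type table. Since the type named ILC2 held 43.2% of the cells, *Cd3e* was above 0 in at least 61.8% of these ILC2s, even if it was above 0 in every other cell. The cell type shares are therefore compared within the table as cells above 0, and not read as the share of cells that express a receptor. Second, several family members are near copies. Of the 50-base words in the last 300 bases of coding transcripts, where 3′-end reads fall, 60.9% of those of *Klrc1* and 20.1% of those of *Klrc2* also occur in transcripts of other *Klrc* genes. The figure was 27.0% for *Klra7* (shared with a *Klra* pseudogene), 24.2% for *Klrb1b* and 11.6% for *Klrb1c*, and 0% for *Klrg1*, *Klrd1*, *Klrk1* and *Klre1*. *Klrc1* and *Klrc2* may thus be split imperfectly by the counting. In addition, the reads of BALB/c mice were counted on a C57BL/6 reference, and mouse strains differ in their *Klra* genes.

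The type named NK listed 9 of the 10 receptors, the most of the 21 types. Of the 2000 features tested in that table, 9.85% were listed for NK. Being listed somewhere was common, with 84.0% of features listed for at least 1 type. The count of receptors listed for any type, also 9 of 10, is close to that second share. The NK type made up 3.66% of the sorted cells, a size solved from the shares. All 8 fixed NK markers were listed for it, of which *Klrb1c* is itself one of the receptors. They were led by *Ncr1* (99.3% of NK cells against 62.5% of other cells) and *Gzma* (89.6% against 39.0%), while *Tbx21* was above 0 in 51.1% against 51.8%.

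Among the receptors listed for NK, *Klrd1* was above 0 in the most NK cells, 99.1% against 74.8% of all other cells. *Klrk1* followed with 95.1% against 70.2%. *Klrc2* stood at 87.1% against 65.8% and *Klrc1* at 85.1% against 61.5%, so that both partners of CD94 were above 0 in a similar share of NK cells. *Klre1*, whose product forms receptors with KLRI1 and KLRI2, had the widest gap of the family, 86.6% against 53.6%, a difference of 33.0 percentage points that ranked 9 among the 197 genes listed for NK. *Klrb1c* was above 0 in 72.6% of NK cells, 22.6 percentage points more than of the others.

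The remaining 3 receptors were listed for NK with nearly equal shares inside and outside. *Klrg1* was at 54.8% against 50.5%, *Klrb1b*, an inhibitory receptor of the NKR-P1 group, at 40.8% against 40.7%, and *Klra7*, which encodes the inhibitory receptor Ly49G, at 47.1% against 49.2%. *Klra7* was therefore above 0 in a smaller share of NK cells than of other cells although the table marks its average as higher there. Over the 9 receptors the median difference was 22.6 percentage points, beside 10.5 for all genes listed for NK.

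**Figure D1:**
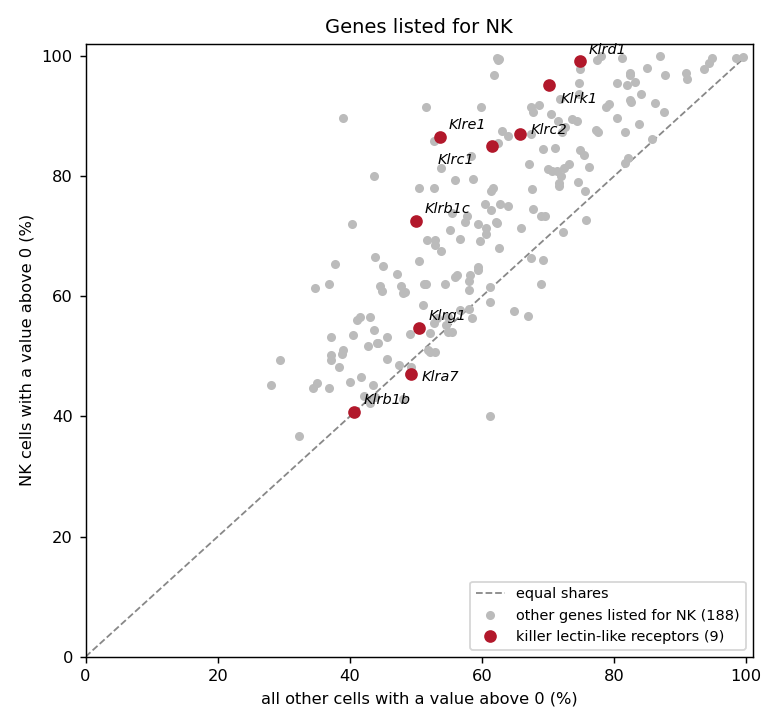
Each point is a gene listed for the type named NK, with the share of all other cells above 0 for it on the horizontal axis and the share of NK cells on the vertical axis, both in percent. Red points are the 9 receptors, of which 6 lie 21.3 to 33.0 percentage points above the dashed line of equal shares, and *Klrg1*, *Klrb1b* and *Klra7* lie within 4.3 points of it.

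The type named ILC1, innate lymphoid cells related to NK cells that make interferon gamma, listed 6 of the 10 receptors, against 7.25% of features tested. It made up 4.84% of the cells and listed 5 of 6 fixed ILC1 markers. *Klrk1* had the largest difference there, 97.2% of ILC1s against 69.7% of other cells, and ranked 8 among 145 listed genes. *Klrd1* was also at 97.2%, against 74.5%. *Klrc2* stood at 81.6% against 65.8%, *Klrc1* at 77.0% against 61.6% and *Klrb1c* at 68.8% against 49.9%. *Klre1* was at 54.5% against 54.9%, a difference of -0.4 points, beside the 33.0 points in NK. Among the 6 receptors listed for both NK and ILC1, *Klre1* was the one whose difference changed most, a description without a test. *Klrg1*, *Klrb1b* and *Klra7* were listed for NK and not for ILC1, and a missing listing does not show that a gene was equal or lower.

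The small type named ILC1_ILC3, 0.592% of the cells, listed 3 receptors, against 11.2% of features tested. *Klrk1* was above 0 in 87.4% of its cells against 71.0%, *Klrb1c* in 66.7% against 50.7% and *Klrb1b* in 55.7% against 40.6%. *Klrb1b* had its only clear difference here, 15.1 percentage points, beside 0.1 points in NK. These values rest on the fewest cells of the types that list a receptor. The median difference of the 3 receptors was 16.0 points, below the 20.3 of all genes listed for this type.

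T cell types listed part of the family. The type named gdT_TypeI, gamma delta T cells that made up 11.7% of the cells, listed 5 receptors, against 7.25% of features tested. *Klrc2* was at 78.4% against 65.0%, *Klrc1* at 73.4% against 60.9%, *Klrd1* at 82.6% against 74.7% and *Klrk1* at 73.8% against 70.7%. Both CD94 partners thus had larger differences in these cells, 13.4 and 12.5 points, than *Klrd1* itself, 7.9 points. *Klre1* was listed too, but above 0 in 42.0% of these cells against 56.5% of the others. The type listed 4 of 6 fixed gamma delta T cell markers. They were *Cd3e* and *Cd3g*, which the CD4 and CD8 types also list, *Trdc* and *Tcrg-C2*. *Trdc*, the constant gene of the delta chain, was at 77.0% against 70.2% and *Tcrg-C2* at 61.5% against 60.3%.

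The type named CD8_Effector, 0.660% of the cells, listed *Klrd1*, *Klrc1*, *Klrc2* and *Klrk1*, against 4.70% of features tested. Only *Klrd1* was above 0 in a larger share inside than outside, 77.8% against 75.6%. *Klrk1* was at 66.5% against 71.1%, *Klrc2* at 60.1% against 66.6% and *Klrc1* at 51.2% against 62.4%. Of all 94 genes listed for this type, 37 had a larger share inside, and the median difference was -3.85 points, so that smaller shares were common there. All 4 fixed CD8 T cell markers were listed for it. CD8_Naive listed *Klrd1* alone, at 76.9% against 75.6%, with 9.90% of features tested listed for it. Type III gamma delta T cells listed *Klrk1* alone, at 87.5% against 70.9% in gdT_TypeIII_ITGAE and 79.9% against 70.9% in gdT_TypeIII_CD163l1, with 9.85% and 9.55% of features listed for these types. In each of these 3 types, 1 of 10 receptors is near the share of all features.

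**Figure D2:**
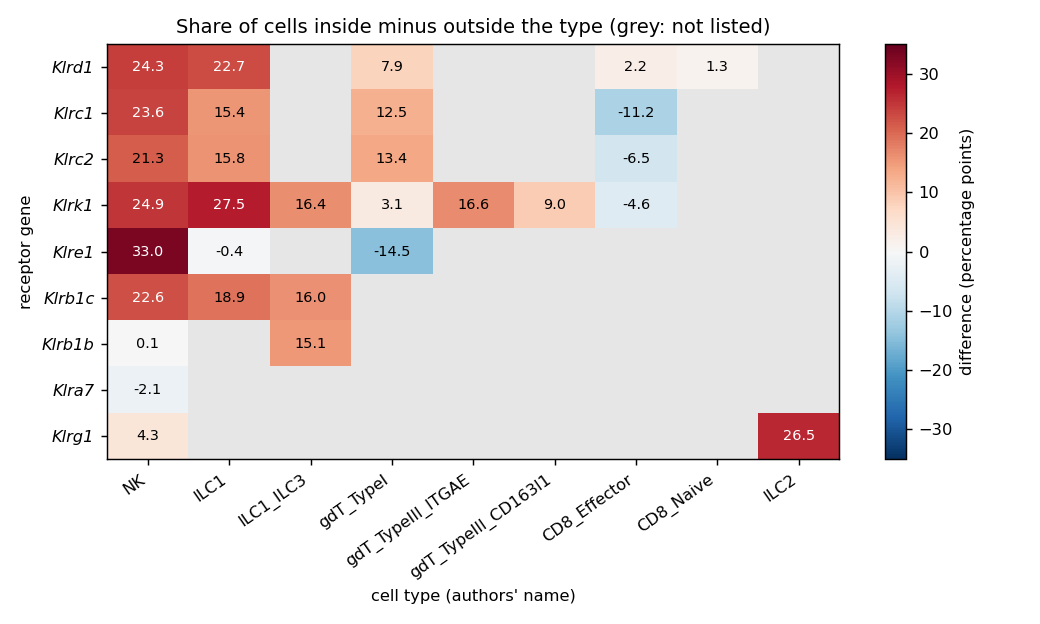
Rows are the 9 listed receptors and columns the 9 cell types that list at least 1 of them, and each cell gives the share of cells above 0 inside the type minus that in all other cells, in percentage points, with grey where the receptor was not listed. The NK column is filled throughout and runs from -2.1 to 33.0, *Klrk1* fills the most columns, and *Klrg1* is the only receptor listed for ILC2.

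*Klrg1* was the only receptor listed for the type named ILC2, for which 6.80% of features were listed. This type made up 43.2% of the cells and listed all 7 fixed ILC2 markers, among them *Il1rl1*, which encodes ST2, at 90.2% against 47.7%. *Klrg1* was above 0 in 65.7% of ILC2s against 39.2% of all other cells, a difference of 26.5 percentage points beside a median of 21.3 for all genes listed for ILC2. With the size of the type, this puts *Klrg1* above 0 in 50.7% of all cells, and 56.1% of the cells above 0 were ILC2s. The types other than ILC2 and NK had a mean share of 38.1%. ILC2_2, a small type that shares 4 of the 7 ILC2 markers, did not list *Klrg1*.

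The cell types in which each receptor was listed ranged from 1 to 7. *Klrk1* was listed for 7, *Klrd1* for 5, *Klrc1* and *Klrc2* for 4 each, *Klre1* and *Klrb1c* for 3 each, *Klrg1* and *Klrb1b* for 2 each and *Klra7* for 1. The 9 types that list a receptor left 12 types with none, which held 30.0% of the cells and included macrophages, basophils, CD4 T cells, regulatory T cells and the proliferating cells. These types listed from 28 (gdT_TypeII) to 513 (proliferating cells) of the 2000 features tested. For types such as CD4 T cells (131) and regulatory T cells (150), none of the 10 receptors is near the share of all features. Every listed receptor was listed for NK, and *Klrg1* shared no other type with any of the other receptors. In 25 of the 31 listings the share was larger inside the type, as in 3699 of all 4422 listings of the table. The median difference was 15.1 points for the receptors and 18.4 for all listings.

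The values solved over the whole cell type table describe cells above 0 and, for the reason given with *Cd3e*, not cells expressing a receptor. The solved share of all cells above 0 was 75.6% for *Klrd1*, 71.1% for *Klrk1*, 66.6% for *Klrc2*, 62.4% for *Klrc1*, 54.8% for *Klre1*, 50.8% for *Klrb1c*, 50.7% for *Klrg1*, 49.1% for *Klra7* and 40.7% for *Klrb1b*. For the 8 receptors with several listings, each listing gives its own estimate, and these differed most for *Klrd1*, from 75.6% to 75.7%. Neighbours in this order such as *Klrb1c* and *Klrg1* differ by less than could be judged without a spread between libraries. Of the cells above 0 for *Klrg1*, ILC2s held 56.1% and NK cells 3.96%. The types that list a receptor held 28.2% of the cells above 0 for *Klrk1*, 27.3% for *Klrd1*, 25.3% for *Klrc1* and 25.1% for *Klrc2*. The value was 19.6% for *Klre1*, 12.6% for *Klrb1c*, 4.48% for *Klrb1b* and 3.51% for *Klra7*. Most cells above 0 for these 8 receptors lay in types that do not list them, as follows from the high shares of this table.

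**Figure D3:**
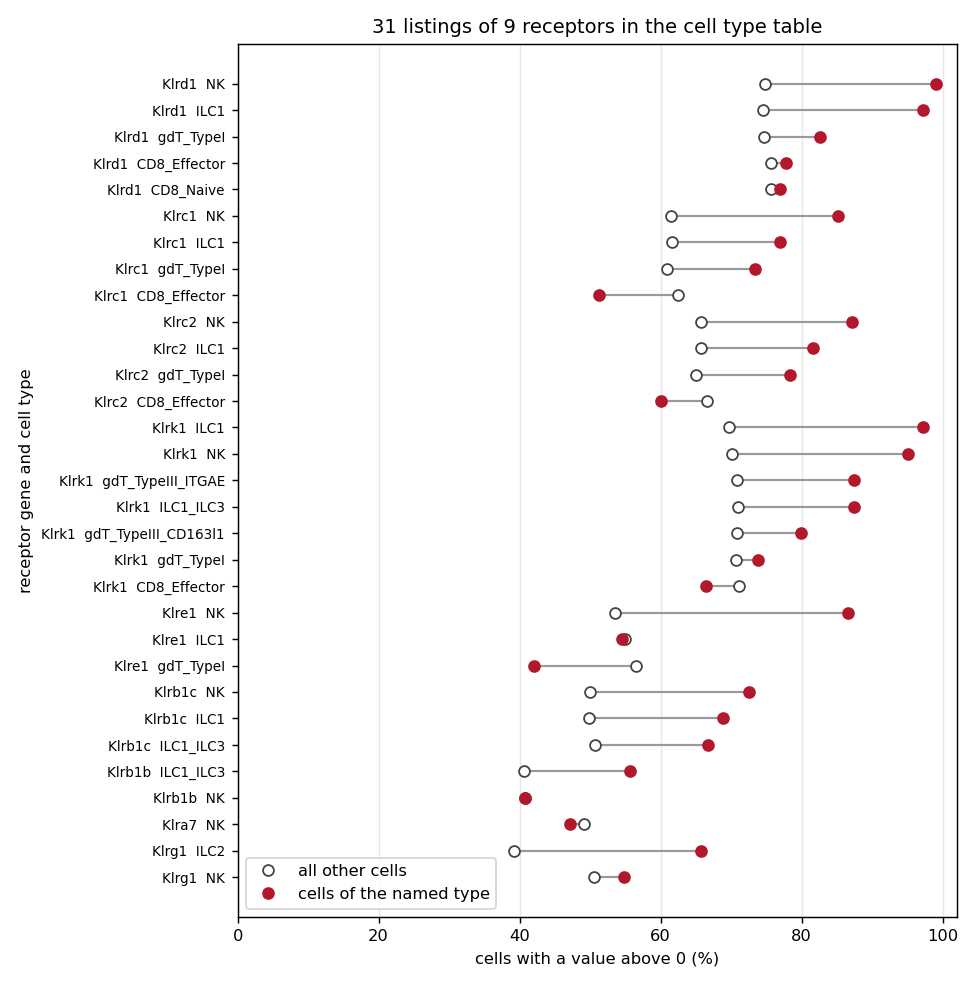
Each row is 1 listing of a receptor in a cell type, with the share of cells above 0 in percent on the horizontal axis, red for the cells of the type and open for all other cells. The 2 open points of *Klrg1* lie at 39.2% and 50.5%, and the red point is to the left of the open one in 6 of the 31 rows, 3 of them in CD8_Effector.

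Among ILC2s, *Klrg1* was listed for subclusters 1, 2, 6 and 8. By the study's account, cells with markers of other lineages had been removed before this second clustering. The study also states that liver ILC2s of rIL-33-treated mice were enriched in its clusters 1, 2, 4, 6 and 8. The subclusters that list *Klrg1* are all among these. Their shares can therefore not be told apart from treatment, organ or library, and this was not tested. Of 14354 features tested in the ILC2 subcluster table, 18.3% were listed for at least 1 subcluster, and 1 of the 10 receptors was. The features listed were 2.53% for subcluster 1, 0.913% for subcluster 2, 1.32% for subcluster 6 and 1.76% for subcluster 8. In subcluster 1 the share of cells with *Klrg1* was 92.1%, and in the ILC2s outside it 63.1%. Subcluster 6 was close to it, at 91.9% against 68.1%. Subcluster 2 stood at 85.6% against 65.2% and subcluster 8 at 85.4% against 68.8%. The difference in subcluster 1, 29.0 percentage points, ranked 27 among 363 listed genes, that in subcluster 6 ranked 14 among 190 and that in subcluster 2 ranked 24 among 131. In subcluster 8 the difference of 16.6 points ranked 165 among 253 and lay below the median of 18.9 for all genes listed there.

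Solved over all ILC2s, *Klrg1* was found in 68.9% of the cells, with 68.9% to 69.0% from the single listings. The 4 subclusters made up 42.8% of the ILC2s and held 55.3% of those with *Klrg1*. Subcluster 1 held 26.8% of them, subcluster 2 held 22.8%, subcluster 6 held 4.96% and subcluster 8 held 0.828%. In the 6 subclusters without a listing the mean share was 53.8%. How this mean is divided over those 6 subclusters is not given by the table. Subcluster 8 held 0.668% of the ILC2s, and its value rests on few cells.

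**Figure D4:**
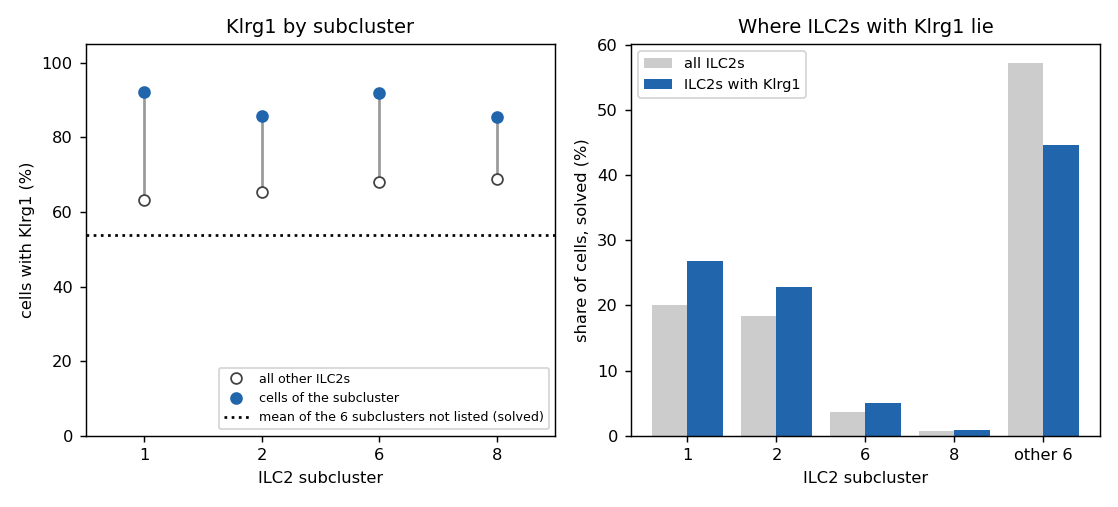
Left, the share of cells with *Klrg1* in percent for the 4 subclusters that list it (blue), for all other ILC2s (open) and as the solved mean of the other 6 subclusters (dotted line, 53.8%). Right, the solved size of each subcluster among all ILC2s (grey) and among ILC2s with *Klrg1* (blue), in percent, with the blue bar higher for the 4 listing subclusters and lower for the other 6 together.

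Genes that ILC2 identity and function are read from were set beside *Klrg1*. *Il13*, the type 2 cytokine, was listed for 3 of the 4 subclusters that list *Klrg1*, with 52.8% of cells in subcluster 1, 56.5% in subcluster 2 and 69.7% in subcluster 8, and also for subclusters 4 and 7, which do not list *Klrg1*. *Il17rb*, the receptor for IL-25, was listed for subclusters 2 and 6 of the 4, at 66.7% and 72.7%, and for subclusters 3 and 9. *Gata3* and *Il1rl1* were listed for subclusters 0 and 3 and for none of the 4. Another 10 genes were listed for exactly subclusters 1, 2, 6 and 8. Nearest to *Klrg1* in their shares over these 4 subclusters were *Sh3bgrl*, *Arl6ip1* and *Tab2*, with mean absolute differences of 4.25, 7.10 and 7.95 percentage points and a Jaccard index of 1 (clusters shared over clusters in either).

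The same measure over the 21 cell types gave the genes of most like pattern for the other receptors. *Klrc1* and *Klrc2* had 6 genes each with the same 4 types, and both were nearest to *Fasl*, a death ligand of killer cells, with mean absolute differences of 3.67 and 3.25 points, before each other at 5.12 points. *Klrd1* was nearest to *Nkg7*, a granule protein, with a Jaccard index of 0.83 over 5 shared types. *Klrb1c* shared its 3 types with *Klri2*, *Ppp1r3b* and *Klrb1f*, and *Klre1* its 3 types with *Sytl2*, *Qrfp* and *Serpinb9*. *Klrk1* was nearest to *Nfil3*, with an index of 0.75 over 6 shared types. *Klrb1b* shared both of its types with *Muc1*, and *Klrg1* both of its types with *Ctla2a*. Mean absolute differences in share were 18.95 points for *Muc1*, 35.3 for *Ctla2a* and 13.0 to 24.0 for the genes named with *Klre1*. For these the likeness lies in the listing types and not in the shares.

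Beyond the 10, another 5 genes of the family were listed for a cell type, and they were taken because they were listed there. *Klrb1f* stood out in ILC1_ILC3, at 92.9% against 54.6%, and was also listed for NK (81.4% against 53.8%) and ILC1 (78.7% against 53.6%). *Klrb1a* was listed for NK and ILC1, at 67.6% and 63.1%, and *Klri2*, a partner of KLRE1, for NK, ILC1 and ILC1_ILC3, at 61.7%, 52.0% and 67.2%. *Klra3*, a Ly49 gene, was listed for the proliferating cells at 88.0% against 55.1%, for NK at 69.5% against 56.7% and, with a smaller share inside, for gdT_TypeI at 46.7% against 58.6%. *Klra1* was listed for gdT_TypeI alone, at 52.5% against 48.9%. None of the 5 was listed for an ILC2 subcluster, which is near the 18.3% of features listed for at least 1 subcluster.

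Several receptors signal through adapters with activating motifs. Of 4 adapter genes, *Tyrobp* (DAP12) and *Fcer1g* were listed for a cell type, against 84.0% of the features tested, and whether the other 2 were tested is not given. In NK cells *Tyrobp* was at 99.7% against 62.3% and *Fcer1g* at 99.5% against 62.6%. In ILC1s the values were 92.7% and 97.0%, and in ILC1_ILC3 they were 68.3% and 100%. Neither was listed for gdT_TypeI or CD8_Effector, which list 5 and 4 receptors. With 7.25% and 4.70% of features listed for these types, the lack of both genes is near the share of all features. Basophils (275 of 2000 features listed) and macrophages (291 of 2000) also listed both adapters but none of the receptors. Among ILC2s both were listed for subcluster 7 alone, in 26.5% and 32.0% of its cells against 3.20% and 5.20% of the others, beside 18.3% of features listed for any subcluster, and subcluster 7 did not list *Klrg1*.

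Of 15 genes of downstream signalling, 4 were listed for a cell type, against 84.0% of the features tested, and whether the other 11 were tested is not given. NK, with 9.85% of features listed, listed 3 of them, the kinases *Syk* (56.5% against 41.6%) and *Lck* (89.7% against 80.4%) and the adapter *Sh2d1a* (75.1% against 63.9%). *Ptpn6*, the phosphatase SHP-1 that inhibitory receptors recruit, was listed for 7 types but not for NK, with 59.1% against 63.6% in ILC1 and its highest share, 97.9%, in macrophages. Among ILC2 subclusters 7 of the 15 were listed, against 18.3% of features tested, and *Sh2d2a* was the only one listed for a subcluster with *Klrg1*, at 82.5% in subcluster 2 and 83.1% in subcluster 6. *Inpp5d*, the phosphatase SHIP-1, was listed for subcluster 5, at 23.2% against 55.3%. Smaller shares were the rule there, with 22 of 1000 listed genes having a larger share inside and a median difference of -21.3 points.

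Of 13 ligand genes, 2 were listed for a cell type, against 84.0% of features tested, and whether the other 11 were among the 2000 features tested is not given by the table. *Cdh1*, which encodes E-cadherin, a ligand of KLRG1, was listed for basophils, at 81.5% against 40.9%. *Clec2i* was listed for basophils, at 66.3% against 52.0%, and with smaller shares inside for ILC2_2 (37.5% against 52.4%) and gdT_Naive (36.3% against 53.2%). Among ILC2 subclusters 4 of the 13 were listed, against 18.3% of features tested. *H2-K1*, a classical MHC class I gene, was listed for each of the 4 subclusters with *Klrg1* and for subcluster 5, with at least 98.3% of the other ILC2s carrying it in each case. *H2-T23*, the gene of Qa-1, was listed for subclusters 1 and 8, at 91.8% against 75.6% and 96.6% against 78.7%.

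Of 13 cytotoxic effector genes 12 were listed for a cell type: 11 for NK, 9 for CD8_Effector, 8 for ILC1 and 6 for gdT_TypeI. The features listed were 9.85% for NK, 4.70% for CD8_Effector and 7.25% each for ILC1 and gdT_TypeI. Since 84.0% of the features tested were listed for at least 1 type, 12 of 13 is near that share. In NK the perforin gene *Prf1* was at 91.5% against 59.9%, and in gdT_TypeI it was at 53.9% against 62.0%. ILC2, with 6.80% of features listed, listed 0 of the 12, which is near that share. Of 11 other NK receptors, 7 were listed for a type, also against 84.0% of features tested, with 5 for NK, 4 for ILC1 and 3 for gdT_TypeI. *Il2rb*, the receptor chain for IL-2 and IL-15, was listed for all 3, at 99.3%, 98.1% and 96.7%. Among ILC2 subclusters 4 of the 13 effectors and 3 of the 11 other NK receptors were listed, against 18.3% of features tested. *Ccl5*, a chemokine, was the only one of them listed for subclusters with *Klrg1*, at 51.2% against 41.8% in subcluster 1 and 60.7% against 43.6% in subcluster 8. Subcluster 4, for which 5.59% of features and none of the 10 receptors were listed, also listed *Ccl5* (62.6% against 41.8%), with *Il2rb* (75.9% against 35.2%), *Cd160* (33.7% against 9.60%), *Nkg7* (30.5% against 11.7%) and *Gzma* (25.8% against 9.70%). Subcluster 7 listed *Nkg7* at 40.0% against 13.0%. Subcluster 5 listed *Nkg7* at 26.3% against 12.9%, and *Il2rb*, *Cd226* and *Tnfsf10* with smaller shares inside.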

How the data were processed

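Cells of 4 libraries, 1 per group by the labels, had been sequenced by droplet-based 3′ methods. Per the study's methods, the authors aligned reads to mm10 with Cell Ranger, removed doublets and dead cells by flow cytometry, left out cells with few genes, divided each cell's counts by its total, took logarithms, clustered in Seurat and made marker tables with its FindAllMarkers function. The deposited fractions of cells above 0, in a cluster and in all other cells, were the values used, as percentages. The deposited log2 fold changes and p-values are the authors' own comparisons and gave no result here. The ratio of adjusted to raw p-value served only to count the features tested, and the fold changes only to see that 0 were negative. Whether a table holds uncorrected or batch-corrected values is not given in the sources used here. Depth and numbers of cells are not in the tables, so no interval or test was computed.

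Cluster sizes were fitted by least squares (Python 3.11.15, numpy 2.4.6, pandas 2.3.3) over genes listed for at least 2 clusters, since a cluster of known size, with its inside and outside shares, fixes the share over all cells of a table. The fit was tested on simulated data. Residuals had an SD of 0.0275 percentage points in the cell type table (1045 genes) and 0.0266 in the ILC2 subcluster table (768 genes). Standard errors of sizes were at most 0.0400 points and cover rounding, not animals. With its size, a listing gives the share in all cells and the part of the cells above 0 in a cluster. In every listing at least 25.0% of cells on one side were above 0.

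Every receptor was named. Related lists and markers came from general knowledge, and genes of like pattern were those with the highest Jaccard index of listing clusters, ties broken by the difference in shares. Receptors and lists were chosen with earlier results of these data known. Genes were placed with GENCODE M21 (GRCm38).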

Additional observations from a re-analysis of the deposited data

How the results depend on the processing

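Only the rule for counting a listing moved a count of the receptors by more than 1.5 times. With a share of cells at least 0.1 above that of all other cells, the cell type listings of the receptors fell from 31 to 18: *Klrd1* kept 2 of its 5 types, *Klrk1* 4 of 7, *Klre1*, *Klrg1* and *Klrb1b* 1 each, and *Klra7* 0. With any larger share inside, 25 remained, *Klre1* kept 1 and *Klra7* 0. These follow from stricter rules. All 4 *Klrg1* listings in ILC2 subclusters passed each rule. A further rule asked for at least 25.0% of cells inside. It could not fail for these 4, whose larger share was inside, because every listing has at least 25.0% on one side. Under other size fits all 60 solved values stayed within the error of the size fit plus rounding, and the largest shift was 0.147 percentage points. No paired analysis was possible because both tables merge the libraries, of which every group had 1.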
